A study of Mus musculus with 4 samples.

Results

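Ier2, Ier3 and Ier5 are immediate early response genes, and the measurements were two-colour microarray ratios of their RNA in the dentate gyrus of mice given MK-801 or saline. Members were taken by gene symbol from the platform annotation, which gave 3 features, 1 per gene, among 16281 features on the array. All 3 had a ratio on all 4 arrays, as did 8777 features in all. The 3 genes had been selected on their log ratios in these same 4 arrays, so those ratios are given as a description, with no test.

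The mice were young male C57BL/6J animals, and the RNA came from the dentate gyrus, a region of the hippocampus built around granule cells. On each of the 4 arrays a saline RNA (injection of 5 µL per g, Cy3) met an MK-801 RNA (injection of 300 µg per g, Cy5), taken at 1, 2, 4 or 6 h, with 1 array for each time. MK-801, or dizocilpine, blocks the channel of the NMDA-type glutamate receptor. The labels count the hours from the final shock of the MK-801 mice, yet call the source of either RNA control mice, so it is unclear whether the animals behind these RNAs had been shocked. The dose is printed as labelled. It is far above usual doses of MK-801, and its unit could not be checked here. How many mice stand behind each RNA, and whether they were pooled, are points not given in the sources used here. No array repeated a time and no dyes were swapped. A difference between the dyes therefore cannot be told apart from one between the treatments. The table states neither the base of its logarithms nor the direction of its ratios. Values were read as log2, and the sign below is that of the deposited value, so a negative ratio may mean less RNA after MK-801 or less RNA after saline. Ratios were centred on the array's median, and an exact 0 was taken as no value. In RNA of whole tissue, fewer cells of a type and less RNA per cell cannot be told apart.

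Immediate early genes are transcribed within minutes of a stimulus without new protein synthesis, and in neurons of the hippocampus calcium entry through NMDA receptors is one route to them. The name Ier is shared but the proteins have different roles. Ier2 (also Pip92) encodes a small proline-rich protein found in the nucleus. Ier5 is related to Ier2 in its first part and brings protein phosphatase 2A to the heat shock factor Hsf1. Ier3 (also IEX-1 or gly96) is unrelated in sequence; it is induced through NF-kB, acts on cell survival, and prolongs ERK signalling through phosphatase 2A.

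Ier3 and Ier5 held the ratios farthest from 0 among the members, and the RefSeq promoter table (GRCm38.p6) matched these 2 of the 3 genes. The 250 bases before their start sites are shown because immediate early genes are switched on at transcription. Capitals mark the letters TATAA, known as the TATA box, the letters CCAAT, bound by factor NF-Y, the letters GGGCGG of the GC box, and matches to the NF-kB site by name, all searched on both strands. The Ier3 window lies at chr17:35821463-35821712 (plus strand) and the Ier5 window at chr1:155099637-155099886 (minus strand).
Ier3: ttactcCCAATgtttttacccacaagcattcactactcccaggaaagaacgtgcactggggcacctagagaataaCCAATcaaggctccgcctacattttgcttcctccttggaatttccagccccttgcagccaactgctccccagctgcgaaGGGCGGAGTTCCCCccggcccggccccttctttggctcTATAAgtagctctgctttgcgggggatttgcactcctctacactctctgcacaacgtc
Ier5: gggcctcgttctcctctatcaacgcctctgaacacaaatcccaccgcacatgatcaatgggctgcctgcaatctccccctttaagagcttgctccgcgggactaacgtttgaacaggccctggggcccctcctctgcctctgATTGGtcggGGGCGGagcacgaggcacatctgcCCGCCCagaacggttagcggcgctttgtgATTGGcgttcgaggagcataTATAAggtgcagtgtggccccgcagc
Both windows held 1 TATA box and 2 CCAAT sequences. Of the 32851 promoter windows of this length, 22.8% and 33.8% held at least 1 of these. The other shares given here also count windows with at least 1 match. The GC box (32.7% of windows) was found at 1 place in Ier3 and at 2 in Ier5. The NF-kB site (7.25% of windows) was matched at 1 place in Ier3, on the minus strand 92 to 83 bases before the start, where it overlaps the GC box by 2 bases, and at no place in Ier5. The CArG box of serum response factor (1.47%), the cyclic AMP response element TGACGTCA (1.55%) and its part TGACG (17.8%), the AP-1 site TGANTCA (6.75%) and the heat shock pair GAANNTTC (6.69%) had no match in either window. These are matches of letters in a short window and say nothing of binding.

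Ier3 had a low ratio at 1 h and ratios nearer 0 later. It read -0.68, -0.12, -0.013 and -0.27 on the 1, 2, 4 and 6 h arrays. The 1 h value amounts to a ratio of 1.60 times between the channels, or 1.97 times if the logarithms are natural. At 1 h, 320 of 12131 features lay at or below Ier3 (percentile 2.64), while at 2, 4 and 6 h it stood at percentiles 30.0, 47.7 and 11.8 of its array. The 1 h array is thus the one on which Ier3 stood in the lower tail. Its 1 h value lay 0.55 below the mean of the later 3 (-0.13), a difference that 728 of 8777 features matched or exceeded in the negative direction (percentile 8.29).

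Ier5 was negative on every array and nearly constant. Each RNA kept its dye on all 4 arrays, so dye and treatment cannot be told apart in such a ratio. Its ratios were -0.24, -0.32, -0.35 and -0.33 on the 1, 2, 4 and 6 h arrays, a mean of -0.31 ± 0.05 (SD over the 4 times). These sizes amount to 1.18, 1.25, 1.27 and 1.26 times. Ier5 stood at percentile 22.2 at 1 h, and at 9.27, 9.02 and 8.53 at 2, 4 and 6 h. The range from the 5th to the 95th percentile of all features was widest at 1 h (-0.55 to 0.66), although their SD was larger at 4 h. Of the 8777 features with 4 ratios, 1245 (14.2%) were negative on every array, Ier3 and Ier5 among them. There were 62 features (0.706%), Ier5 included, that were negative with each ratio at least as far from 0 as the smallest of Ier5. The same count set by the smallest ratio of Ier3 was 1086 (12.4%). These limits come from the members' own ratios, on which they were selected, so the counts are description only. The spread of Ier5 over the times was at percentile 4.34 of all features, whose median SD was 0.17.

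Ier2 stayed close to the middle of every array. It read 0.10, -0.14, -0.091 and 0.036 on these arrays, with a mean of -0.023 ± 0.11 (SD over the 4 times). It was thus positive on 2 arrays and negative on 2, at percentiles 62.6, 26.3, 33.4 and 56.9. Its largest ratio, at 2 h, amounts to 1.10 times, and 54.2% of features on that array were at least as far from 0.

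**Figure D1:**
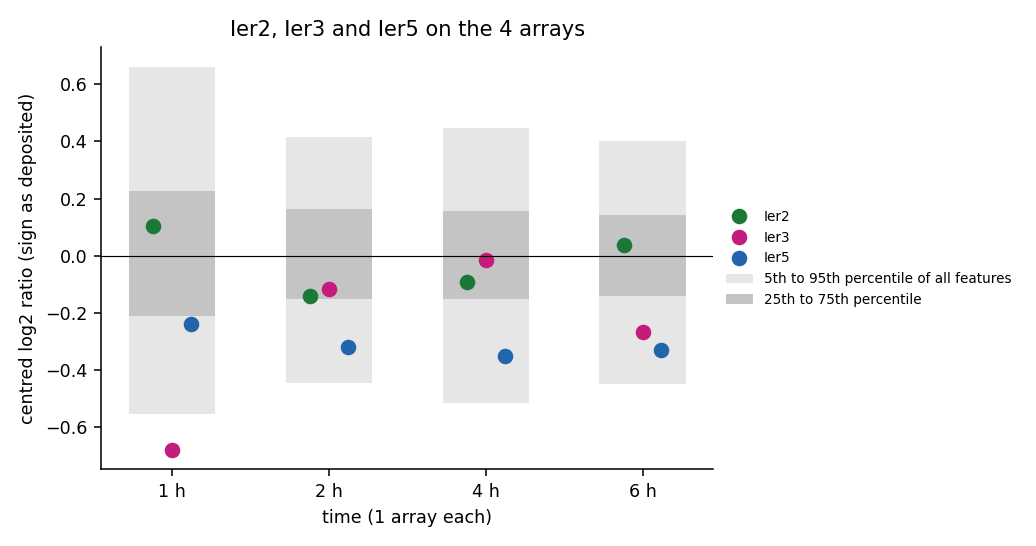
Centred log2 ratio (vertical axis, sign as deposited) of Ier2, Ier3 and Ier5 on the 1, 2, 4 and 6 h arrays, with bars for the 5th to 95th and the 25th to 75th percentile of all features with a value on each array. Ier3 at 1 h (-0.68) is the only point outside the wider bars, and Ier5 lies below the narrower bar on all 4 arrays.

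Of the differences between members the largest was that of Ier2 and Ier3 at 1 h, 0.78, and the smallest that of the same genes at 2 h, 0.024. Ier3 was 0.44 below Ier5 at 1 h, and 0.20, 0.34 and 0.060 above it at 2, 4 and 6 h, so their order turned after the 1 h array. Ier2 was above Ier5 on all 4 arrays, by 0.34, 0.18, 0.26 and 0.36. From lowest to highest ratio the order was Ier3, Ier5, Ier2 at 1 h, and Ier5, Ier3, Ier2 at 6 h. At 2 h Ier2 and Ier3 were close together (-0.14 and -0.12), with Ier5 lowest. At 4 h the order was Ier5, Ier2, Ier3.

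No array was repeated, so the disagreement between features of the same gene on the same array was used as a rough measure of error. Its pooled SD on the 1, 2, 4 and 6 h arrays was 0.37, 0.34, 0.57 and 0.46, over 1685, 1519, 1236 and 1271 genes with several features. In genes with exactly 2 features, these differed by a median of 0.31, 0.20, 0.20 and 0.17, and 10% of genes had a gap above 0.90, 0.62, 0.94 and 0.70. This measure covers neither the mice nor the labelling. The SD of all features with a value on these arrays was 0.37, 0.32, 0.44 and 0.38. Features of the same gene thus disagreed about as much as all features spread at 1 h, and more at 2, 4 and 6 h. The pooled SD is therefore a coarse yardstick. Ier3 at 1 h was the only member value beyond the pooled SD, at 1.82 times it. All ratios of Ier2 and Ier5 lay within it, a wide limit that says little of their error. Of the differences between members, those of Ier3 from Ier2 (0.78) and from Ier5 (0.44) at 1 h were larger than the pooled SD. All others were smaller. The pooled SD is that of 1 feature, and a difference between 2 features spreads more widely. Both 1 h differences were below the gap of 0.90 that 10% of genes with exactly 2 features exceeded. With 1 feature per gene, no member has a second feature to set beside its value.

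At a size of 0.5, used here to count features, 1 of the 3 members lay at or below -0.5 at 1 h (Ier3) and 0 at 2, 4 and 6 h. Over all features with a value the shares at or below -0.5 were 6.37%, 3.88%, 5.21% and 4.09%. At or above 0.5 there were 0 members at any time, and the shares of all features were 9.03%, 2.48%, 3.85% and 2.68%. Nothing is read from these counts, since the members were chosen with these ratios known.

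The features with neighbouring numbers on the array were looked at as well, within 20 numbers on either side. Only the numbers were used, and whether nearby numbers are nearby places was not checked. Around Ier3, 28 neighbours had a value at 1 h, with a median of 0.0038 and a range of -0.95 to 0.20. Of these, 6 (21.4%) lay at or below -0.5, where 6.37% of all features did, and 1 lay at or below Ier3. At 2 h the count was 2 of 32 neighbours, and at 4 and 6 h it was 0 of 22 and 0 of 25. Whether place on the array has a part in the 1 h value of Ier3 was not tested. Around Ier5 the medians were -0.041, 0.011, 0.051 and 0.042, and 9 of 33 neighbours at 1 h, 1 of 34 at 2 h, 1 of 31 at 4 h and 1 of 32 at 6 h were at or below Ier5. At or below -0.5 were 4 of its 33 neighbours at 1 h (12.1%), and whether place on the array has a part in the ratios of Ier5 was not tested. Measured from its neighbours Ier5 read -0.20, -0.33, -0.40 and -0.37, Ier3 read -0.68, -0.026, -0.0097 and -0.27, and Ier2 read 0.029, -0.12, -0.073 and -0.022.

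**Figure D2:**
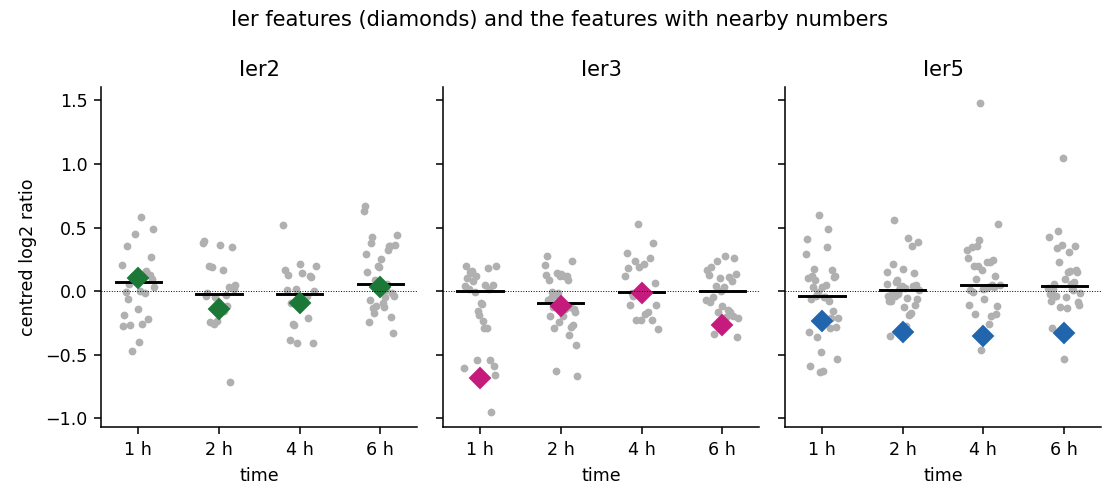
Centred log2 ratio (vertical axis) by time for Ier2, Ier3 and Ier5 (diamonds), with the features whose numbers lie within 20 of theirs (grey points) and the median of those (bars). At 1 h 6 of the 28 neighbours of Ier3 form a low set near it, while Ier5 lies below its neighbours' median on all 4 arrays.

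Other immediate early genes give the setting of the members. Of 62 such genes listed, 53 were on the array, and 54 features of 40 genes had 4 ratios. Their medians on the 1, 2, 4 and 6 h arrays were 0.15, -0.061, -0.085 and -0.032, with 36, 19, 19 and 25 of the 54 positive, beside medians over all 8777 features of -0.033, -0.0095, -0.00096 and 0.00099. Ier2 followed the sign of the list's median at 1, 2 and 4 h, with 21 of the 54 features below it at 1 h. Ier3 lay at the opposite end at 1 h, where 1 of the 54 features was lower, that of the nuclear receptor gene Nr4a2 (-0.86), and Myc was just above (-0.64). Among all 71 features of the list with a 1 h value, 6 lay at or below -0.5 and 12 at or above 0.5. Over all features on that array these shares were 6.37% and 9.03%. For the transcription factor genes of the list the counts were 5 and 3 of 23 features, and for the effectors 1 and 9 of 48. The transcription factor genes Fos and Nr4a1 had 1 h ratios of 1.17 and 0.63 in their features with the largest difference from the later mean. In the second Fos feature the 1 h ratio was 0.11. Among effectors the kinase gene Sik1 (0.57) and the matrix protein gene Ccn1 (0.71) had the largest positive differences of 1 h from later times. Features of the kinase gene Sgk1 (-0.29) and the matrix protein gene Ccn2 (-0.34) had the most negative (1 h ratios in brackets). In another Sgk1 feature the 1 h ratio was -0.042. For 36 of the 54 features 1 h lay above the later mean. Ier2 and Ier5 were on that side as well, by 0.17 and 0.095, and Ier3 was on the other.

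**Figure D3:**
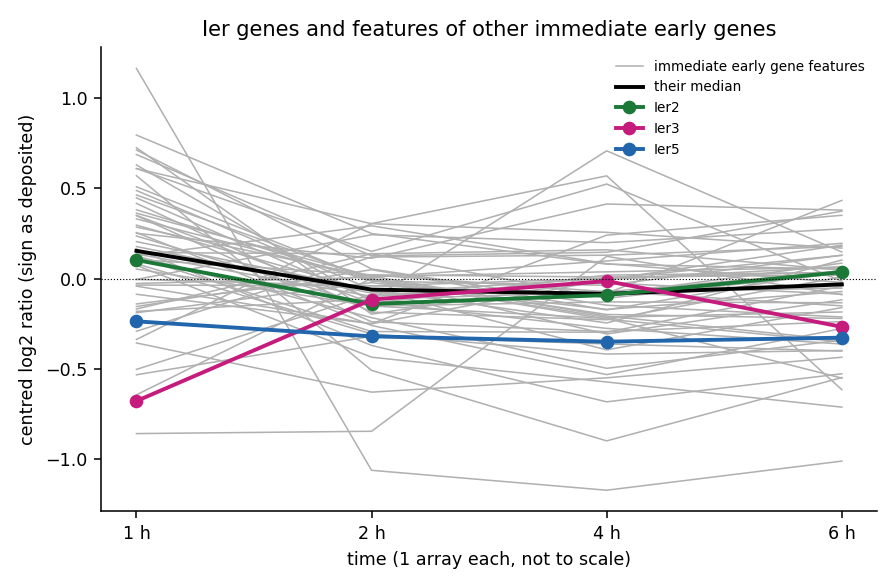
Centred log2 ratio (vertical axis, sign as deposited) at 1, 2, 4 and 6 h of 54 features of other immediate early genes (grey lines), their median (black) and Ier2, Ier3 and Ier5. The black line starts at 0.15 and is below 0 later; Ier2 runs beside it, Ier3 starts at -0.68, and Ier5 stays between -0.24 and -0.35.

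Beside this list Ier5 was nearly constant, and 1 of the 54 features had a smaller SD over the 4 times. In mean ratio 7 of the 54 were lower than Ier5, and 5 were negative on every array. These included both features of the clock gene Per1 (-0.36, -0.63, -0.55 and -0.44 in one, and -0.53, -0.32, -0.36 and -0.40 in the other). With limma, fitted to all 8777 features and adjusted by Benjamini-Hochberg at 0.05, 0 of the 54 features passed for the mean of the 4 arrays and 0 for the slope on log2 hours. At an unadjusted p under 0.05 there were 9 and 17. In both fits the share of all features called was 0%. Of the 8777 features, 1295 had an unadjusted p under 0.05 for the mean and 1357 for the slope. Without the 1 h array, 1 of the 54 was called positive and 10 negative for the mean of 2, 4 and 6 h, where 6.47% and 5.59% of all features were called.

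**Figure D4:**
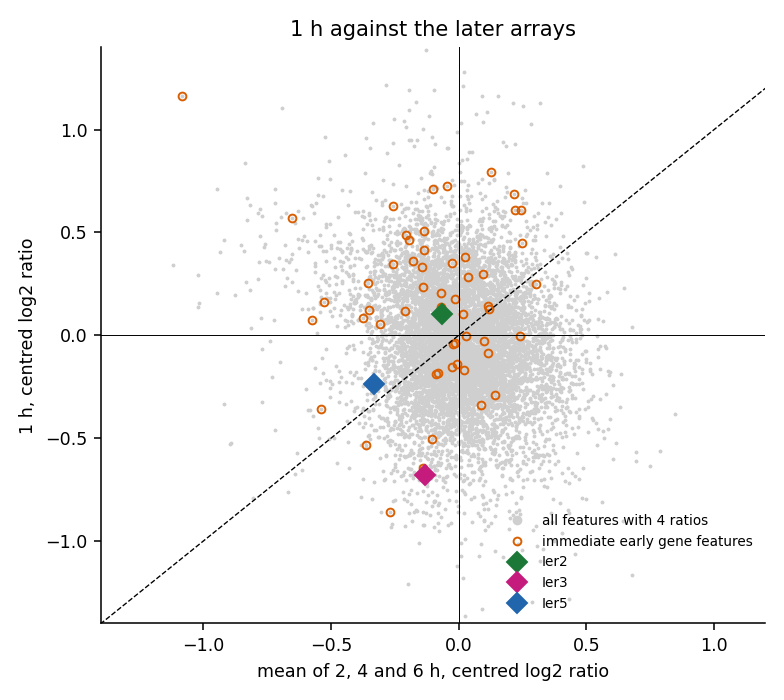
Centred log2 ratio at 1 h (vertical axis) against the mean of 2, 4 and 6 h (horizontal axis) for 8777 features (grey), 54 features of other immediate early genes (circles) and the 3 members (diamonds), with a dashed line where both are equal; 42 features lie outside the axes. Ier3 lies below the line by 0.55, Ier5 above it by 0.095 where both axes are negative, and Ier2 near the centre.

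The pathways in which the members act were described in the same way. Ier3 is an NF-kB target, and 21 features of 18 genes of NF-kB subunits, inhibitors and targets had medians of -0.051, -0.042, 0.011 and -0.016. In that list 1 feature was lower than Ier3 at 1 h, and 2 had a more negative difference between 1 h and later times, Birc2, an inhibitor of apoptosis (-0.75), and Bcl3, a partner of NF-kB p50 and p52 (-0.58). At the other end of the differences were Nfkbiz (0.72) and Nfkbib (2.17), both of the inhibitor of NF-kB family, the latter in a feature negative at all times (-0.95, -3.16, -3.42 and -2.79). Ier3 also touches ERK. The 13 features of the ERK cascade had medians of -0.026, 0.060, 0.0097 and 0.00068, with Araf, a Raf kinase, lowest in the difference (-0.44) and Dusp6, the phosphatase of ERK, highest (0.69). None of those 13 was lower than Ier3 at 1 h.

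Ier5 and Ier3 both bind phosphatase 2A. Its 11 features with 4 ratios had medians of -0.082, 0.070, 0.11 and 0.098, and 0 of the 11 were below Ier5 on any of the 4 arrays. Ppp2r1a, the scaffold subunit, read 0.54 at 2 h, and Ppp2ca, a catalytic subunit, read -0.16 at 1 h and 0.26 at 4 h. The partner of Ier5, Hsf1, drives heat shock genes. In a list of heat shock factor and heat shock protein genes, 15 features had a 1 h value and 12 had 4 ratios. Those 12 were all positive at 1 h (median 0.34), with medians of 0.0014, 0.055 and -0.051 at 2, 4 and 6 h. Ier5 was negative at 1 h, when 0 of these 12 lay below it. Hspa1b, an inducible Hsp70 gene, read 0.61 at 1 h and -1.54, -2.29 and -1.93 later in 1 of its features, and Hspb1, a small heat shock protein gene, read 0.57 at 1 h and -0.32 at 6 h. In the limma fits 0 features of these 4 pathway lists passed for the mean or for the slope. At an unadjusted p under 0.05 there were 2 NF-kB, 2 ERK, 2 phosphatase 2A and 2 heat shock features for the mean, and 4, 1, 1 and 4 for the slope.

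Genes of like name outside the symbol rule were Ier5l and Ier3ip1. Ier5l, the closest relative of Ier5, had a ratio on the 6 h array only, -0.17, against -0.33 for Ier5. Ier3ip1, named for an interaction with Ier3, read 0.11, 0.15, 0.041 and -0.066.

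The features most like each member were sought among 7683 features with 1 symbol, by the root mean square difference over the 4 arrays. For Ier5 they were Bace1, the beta-secretase (0.027), Zfp62 (0.033), Esf1 (0.042), Asic2, an acid-sensing ion channel of neurons (0.047), and Fam204a (0.055), where the median feature was 0.36 away. For Ier3 they were Arpc1b, a subunit of the actin-nucleating Arp2/3 complex (0.036), Ccdc97 (0.039), Eef2k, the kinase of elongation factor 2 (0.071), Ganc (0.075) and Tmtc4 (0.079). Other features of 3 of these genes did not repeat the Ier3 pattern and had 1 h ratios of -0.18 for Arpc1b, 0.36 for Ccdc97 and -0.10 for Tmtc4. For Ier2 they were 1700003E16Rik (0.021), Gpr27 (0.023), Nek2 (0.023), Sema3d (0.024) and Mrpl12 (0.026). Where these genes had another feature, its 4 h ratio was 0.18 for Gpr27, -2.31 for Nek2 and -0.11 for Mrpl12. Patterns near 0 were common, and 494 features lay within 0.1 of Ier2, 44 of Ier5 and 12 of Ier3.

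The arrays give ratios and no levels, so the tissue could not be checked by the presence of its markers. At 1 h, when Ier3 was low, 4771 of 8777 features were negative. Among marker lists this held for 4 of 4 granule cell features (-0.57 to -0.19), 7 of 8 features of other neurons (-0.55 to 0.32), 6 of 8 vessel features (-1.05 to 0.21, median -0.20) and 3 of 4 choroid plexus features (-0.24 to 0.20). It also held for 6 of 13 astrocyte, 8 of 15 microglia, 6 of 11 oligodendrocyte and 2 of 6 blood features. The vessel median was -0.068, -0.026 and 0.11 later, and that of the granule cell features -0.027, 0.19 and -0.060. The medians at 1 h were -0.089 for other neurons, 0.0026 for astrocytes, -0.11 for microglia, -0.016 for oligodendrocytes, -0.12 for choroid plexus and 0.13 for blood. For choroid plexus, 4 of 4 features were negative at 2, 4 and 6 h (medians -0.58, -0.38 and -0.44), times at which Ier5 was also negative. The part of any of these cell types in the ratios of Ier3 and Ier5 was not tested.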

How the data were processed

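The data were 4 two-colour arrays, 1 per time. The authors deposited a log ratio of the channels per feature, read here as log2; their scanning, background correction and normalisation are not given in the sources used here. Base, direction and the reading of exact 0 (25.5%, 24.9%, 37.4% and 35.4% of features at 1, 2, 4 and 6 h) as no value are inferences; if they are natural logarithms, every size given as log2 has to be multiplied by a constant above 1. Medians of the non-zero values were 0.0074, 0.0093, 0.017 and 0.0052 and were subtracted. The number of arrays limits the precision.

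Of 16281 features, 13738 had 1 symbol in the platform annotation, 52 several and 2491 none; 13694 matched GRCm38.p6 genes by Entrez identifier and 0 symbols changed. limma 3.58.1 under R 4.3.3 (lmFit, eBayes, two-sided) was fitted to features with 4 ratios and tested on simulated data; its p-values rest on how far the 4 times differ, and part of that may be technical. Members and lists were chosen with earlier results of these data known, and the look at low neighbours and at features of one gene came after their values were seen. Named genes were the members, the 5 features nearest to each, and from each list the 2 highest and 2 lowest differences of 1 h from the later mean, from which the text takes some; Per1, the second features of genes and the features below a member were named after their values were seen.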

Additional observations from a re-analysis of the deposited data

How the results depend on the processing

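The 12 member ratios (3 genes at 4 times) were recomputed under 5 settings, 60 comparisons in all. The settings were no centring, quantile normalisation, equal spread of the arrays, centring on neighbouring features and the gene mean. All moved by less than the pooled SD of features of a gene. That is a loose limit, since every member ratio except Ier3 at 1 h was itself smaller than it. The gene mean could not differ, because each member has 1 feature. Ier3 at 1 h was -0.52 with equal spread of the arrays. The sign changed in 2 of the 60 comparisons: Ier2 at 6 h was -0.022 centred on neighbours, and Ier3 at 4 h was 0.0031 with no centring. For the mean of the 4 arrays limma called 0 features, but 19 with values on at least 3 arrays, 2406 with array weights, 9 with quantile normalisation, and 0 to 1059 leaving out each array in turn, the highest without the 1 h array (568 positive, 491 negative) and 0 without any other. For the slope it called 0, and 0 to 1 leaving out each array, the highest without the 4 h array. The cause was not tested. With 3 arrays, 1 per time, the spread comes from the remaining times.

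On the 1, 2, 4 and 6 h arrays, 1095, 303, 392 and 282 features were past 0.5 in the positive and 773, 475, 531 and 430 in the negative direction. At a size of 1 there were 208, 0, 11 and 12 positive and 50, 117, 204 and 151 negative. With equal spread of the arrays there were 628 positive and 370 negative at 1 h, and 457 positive at 6 h. Among features with 4 ratios, which are fewer, there were 346, 116, 269 and 168 positive on the 1, 2, 4 and 6 h arrays. Negative on those arrays were 530, 212, 311 and 238. At 1 h the negative features thus outnumbered the positive ones in this set, the reverse of all features with a value. The cause of this was not tested. The other counts stayed within 1.5 times. Each ratio already sets a saline RNA against an MK-801 RNA on the same array. No further pairing of arrays was possible because the labels carry no replicate numbers and each time has 1 array. Signal over background could not be examined, since the table holds ratios alone.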
